A study of Mus musculus with 4 samples.

Results

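Core binding factor was followed through its 7 listed genes in mouse hip and knee articular cartilage. The genes were taken by name and by Ensembl identifier, from a list drawn up with earlier results of these data known. They were Cbfb, the 3 Runx genes Runx1, Runx2 and Runx3, and the 3 genes of the ETO corepressor family, Runx1t1, Cbfa2t2 and Cbfa2t3. All 7 were found in the count tables, among 50686 gene identifiers for the hip and 54838 for the knee, and all 7 had enough counts to be compared in both joints.

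There were 4 poly-A RNA libraries, 1 for each condition. The hip control was Cbfβf/f, which carries the floxed Cbfb gene without a Cre. Its label gives the treatment as None, while the methods describe tamoxifen or corn oil for mice of this genotype without saying which libraries they concern. Its partner was tamoxifen-injected Cbfβf/f;Col2α1-CreERT, in which the Col2α1 promoter drives an inducible Cre in chondrocytes. The knee control was Cbfβf/f;Aggrecan-CreERT given oil, and its partner was the same genotype given tamoxifen, with Cre driven from the aggrecan locus. All mice were male, and by the labels homozygous for the floxed gene, although the text of the study calls the hip control wild type. The age of the hip mice is given as 6 weeks in 1 place and 2 months in another, with tamoxifen from 2 weeks of age. The knee mice were 12 weeks old, with tamoxifen from 8 weeks by the methods or 6 weeks by a legend. The tamoxifen-injected libraries are called here the libraries labelled Cbfb-deficient. Cells in the tissue that never expressed the Cre keep the gene, and nothing states whether a library held 1 mouse or several. The hip control thus has no Cre and, by its label, no treatment, whereas the knee control has both Cre and oil. The joints therefore also differ in Cre line, age, control and the gene set of their count tables, and these cannot be told apart.

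Core binding factor is a heterodimer. A Runx protein binds DNA through its Runt domain at a short core sequence, and Cbfβ, which does not touch DNA itself, strengthens that binding and shields the Runx protein from degradation. Runx2 is known as the regulator of osteoblasts and hypertrophic chondrocytes, Runx1 of blood stem cells and early chondrocytes, and Runx3 of T cells and of chondrocyte maturation together with Runx2. The ETO proteins carry no Runt domain. They are corepressors that recruit histone deacetylases, and Runx1t1 is known as the fusion partner of RUNX1 in acute myeloid leukaemia.

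The Runx genes share a stretch of promoter sequence that was not found in the windows of Cbfb, Cbfa2t2 and Cbfa2t3, and it is shown because it contains the Runx core itself. The core ACCACA was searched for on both strands in the RefSeq promoter windows of the 6 members that had one, from 250 bases before to 50 after each start (9 windows, GRCm38.p6). In the distal window of Runx1, in the window of Runx2 and in the first window of Runx3, 2 copies stood 2 bases apart on the strand of the gene. In the lines that follow, capitals mark both copies and the spacer, written 5′ to 3′ on the gene's strand.
Runx1, chr16:92826025-92826053, minus strand, copies at +29 to +42: ataaacaACCACAGAACCACAagttgggt
Runx2, chr17:44814582-44814611, minus strand, copies at +24 to +37: acaaacaACCACAGAACCACAagtgcggtg
Runx3, chr4:135120504-135120533, plus strand, copies at -134 to -121: tccctcaACCACAGAACCACAaggccaggc
The capital run of 14 bases was identical in all 3 genes. The Runx2 window held another ACCACA starting at -80. The windows of Cbfb, Cbfa2t2 and Cbfa2t3 and the second starts of Runx1 and Runx3 held none. Among 32851 promoter windows of the same length, 16.8% held at least 1 ACCACA, 1.78% held 2 or more and 7 windows (0.0213%) held 2 copies 2 bases apart on 1 strand. Duplicate windows were dropped, and 1 chromosome, which holds none of the members, was left out of this count. Those 7 belong to Runx1, Runx2, Runx3, Olfr24, Gm15462, Gm12236 and Gm16225, the last of which overlaps the Runx3 window on the opposite strand. The spacing was noticed on reading the windows, so its count is a description of sequence and not of binding.

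**Figure D1:**
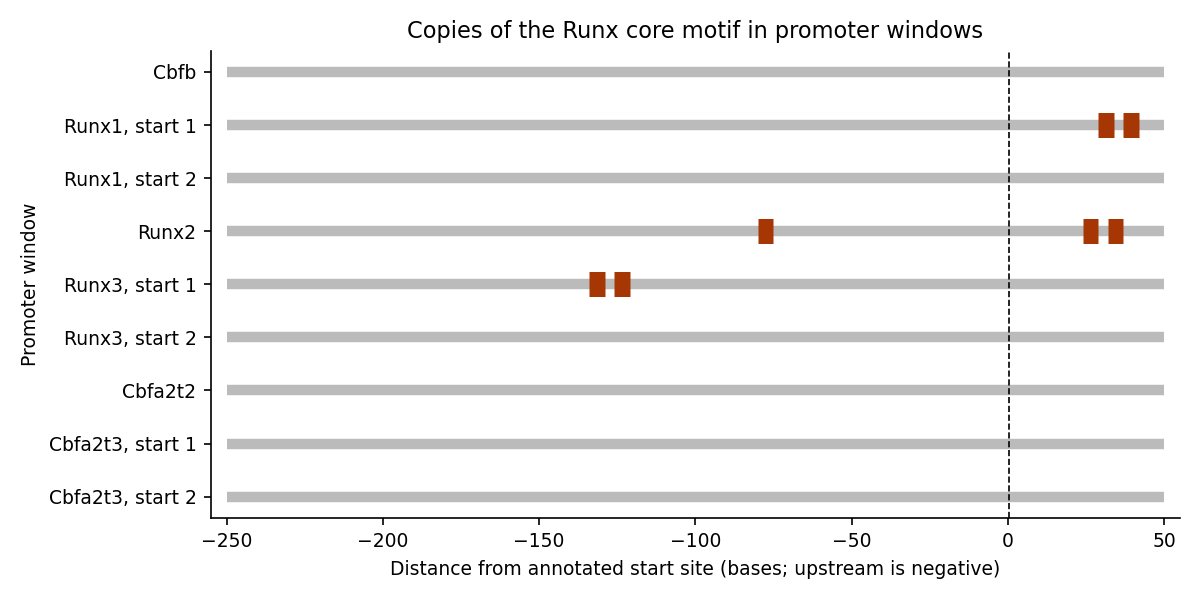
Copies of ACCACA (dark marks) in the 9 promoter windows of 6 members (rows), against distance from the annotated start in bases, with the start as a dashed line. Paired marks stand in Runx1 start 1, Runx2 and Runx3 start 1, and the windows of Cbfb, Cbfa2t2 and Cbfa2t3 hold none.

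The libraries held 34264456 to 38473120 counts on genes. Markers of the labelled tissue were scarce in the hip: the 16 chondrocyte markers took 0.0260% of counts in the hip control and 0.0106% in its partner, with none at 0, whereas 19 skeletal muscle markers took 18.3% and 19.6%. In the knee the chondrocyte markers took 0.641% and 0.315%, and 10 erythroid markers took 10.0% and 4.95%. All values below therefore describe mixed tissue, and in bulk RNA fewer cells of a type and less RNA per cell cannot be told apart.

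Within a joint each condition had 1 library, so no test of a difference was made. Each log2 ratio compares a pair of libraries, after scaling by TMM (trimmed mean of M values) within the joint, with a Clopper-Pearson interval at 95% for the error of counting alone. Changed genes were those where the pair held at least 10 counts, the ratio was at least 2-fold and the interval excluded 0. In the hip this rule called 20.2% of 19856 tested genes higher and 16.3% lower, and in the knee 9.00% of 21131 higher and 6.81% lower. The interval alone lay above 0 for 37.3% and below 0 for 33.7% of genes in the hip, and for 31.9% and 29.7% in the knee. Against this background 0 of 7 members rose and 1 fell in the hip, and 0 rose and 0 fell in the knee. By the interval alone, 2 members lay above 0, 3 below and 2 within it in the hip, and 2 above, 2 below and 3 within it in the knee. Under library size scaling the knee counts were 6 above and 0 below. That scaling also moved the median of all knee genes from 0.02 to 0.20 and the share of calls that were higher from 56.9% to 71.3%. The share of all genes above 0 by the interval was not counted under it. The median log2 ratio of the members was -0.10 in the hip and 0.07 in the knee, beside 0.01 and 0.02 for all genes tested.

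Cbfb, the floxed gene, was not called lower in either library labelled Cbfb-deficient. In the hip it had 2548 counts in the control and 2946 in the library labelled Cbfb-deficient, or 66.2 and 85.2 CPM (counts scaled to a common library total). In the knee it had 3796 and 4572 counts, or 111 and 120 CPM. The log2 ratio was 0.41 (0.33 to 0.48) in the hip and -0.07 (-0.13 to -0.01) in the knee. Among all genes tested these ratios stood at percentiles 63.1 and 44.4. The deposited counts cover the whole gene (Ensembl ENSMUSG00000031885, GRCm39 chr8:105897291-105944633), so they do not show whether the floxed exon was removed from the transcripts.

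The direction of Cbfb depended on the processing in both joints. Hip ratios followed transcript length and GC content, and the shift fitted for a gene like Cbfb was 0.61. With that trend removed, the hip ratio of Cbfb was -0.21 (-0.28 to -0.13) and the knee ratio was 0.09 (0.02 to 0.15). In the knee the sign also turned to 0.11 when libraries were scaled by their total counts. No scaling or trend removal brought Cbfb to a 2-fold difference in either direction.

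**Figure D2:**
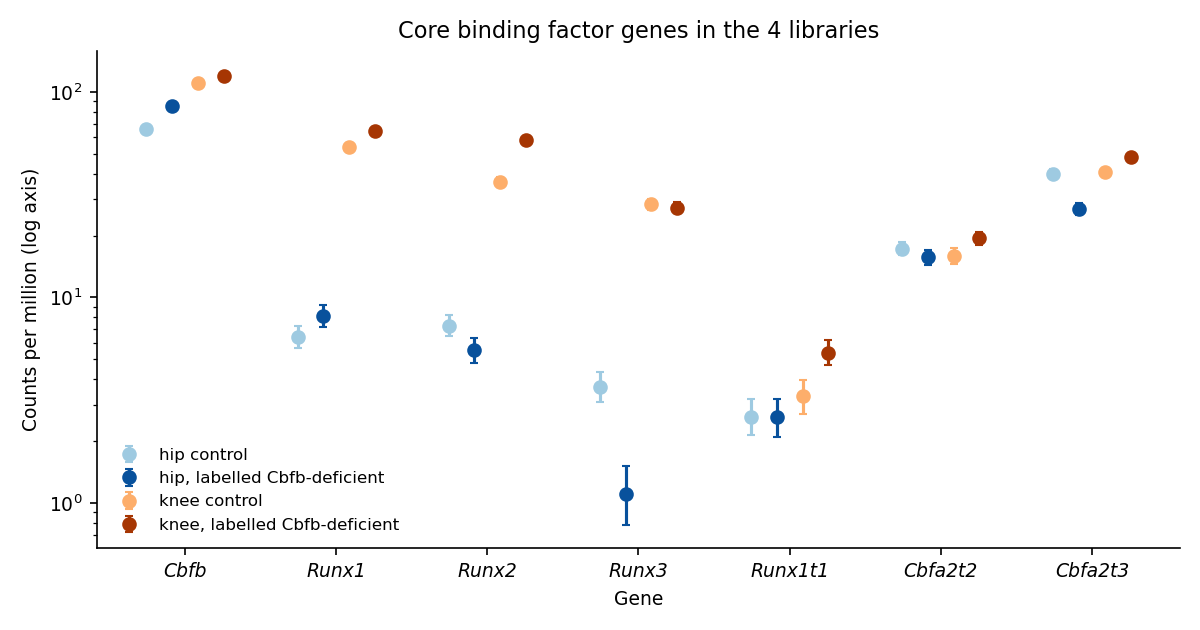
CPM (counts scaled to a common library total, log axis) of the 7 genes in the hip control, the hip library labelled Cbfb-deficient, the knee control and the knee library labelled Cbfb-deficient, with bars for the 95% counting interval. Cbfb is the highest gene in every library, and Runx3 in the hip library labelled Cbfb-deficient is the lowest value at 1.10 CPM.

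The Runx genes, which encode the DNA-binding partners, did not move together in the hip. Runx3 (ENSMUSG00000070691, GRCm39 chr4:134847952-134905301) was the 1 member called changed. For 7 members, 1 called lower is near the 16.3% of all hip genes. It fell from 141 counts to 38 in the hip pair, or from 3.66 to 1.10 CPM. The log2 ratio was -1.68 (-2.25 to -1.17), a level 3.20-fold lower, at percentile 10.5 of all genes tested. It remained called under every scaling, added count and filter tried, and was -1.29 (-1.86 to -0.78) after trend removal. Knee Runx3 had 971 and 1043 counts, or 28.3 and 27.3 CPM, with a log2 ratio of -0.24 (-0.36 to -0.11). That knee ratio was -0.05 when scaled by total counts.

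Summed levels of several cell types were lower beside Runx3 in the hip library labelled Cbfb-deficient. The counts of markers called are set against 16.3% of all hip genes called lower and 20.2% called higher. The 13 T and NK cell markers went from 0.000798% to 0.000492% of counts, with Gzma at 0 in the library labelled Cbfb-deficient, 4 of the 9 tested called lower and 1 higher. The 6 B cell markers found went from 0.00163% to 0.000434% (5 called lower) and the 6 megakaryocyte markers from 0.00411% to 0.00171% (5 called lower). The 8 macrophage markers went from 0.0167% to 0.00990%, with 5 called lower and 1 higher. The 11 osteoblast and osteocyte markers went from 0.0916% to 0.0218%, with 5 called lower and 1 higher. Lower calls outnumbered higher ones in each of these lists. Of the 15 chondrocyte markers tested, 5 were called lower and 2 higher (16.3% and 20.2% of all genes). The erythroid list went from 0.589% to 0.223% (4 of 10 called lower). The neutrophil and adipocyte lists were mixed. Neutrophil markers summed to 0.0461% and 0.0534%, but their median log2 ratio was -0.07, with 4 of 10 above, 4 below and 2 within the interval, and the 2 called higher match the 20.2% of all genes. Adipocyte markers summed to 0.0214% and 0.0358%, with 1 of 7 called higher and 2 lower, beside 20.2% and 16.3%. Of 7 osteoclast markers tested 1 was called higher and 1 lower, and of 7 blood progenitor markers 1 higher and 0 lower, beside the same shares. With the length and GC trend removed, median log2 ratios went from -0.66 to -0.29 for T and NK cells and from -1.12 to -0.60 for macrophages. They went from -1.87 to -1.59 for B cells and from -0.57 to -0.11 for osteoclasts, and turned from -0.43 to 0.07 for blood progenitors. Some lower calls in the T and NK cell, macrophage and erythroid lists were then under 2-fold. Apart from Gzma no marker of these lists was at 0, and their part in the Runx3 result was not tested.

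Runx2 (ENSMUSG00000039153, GRCm39 chr17:44806874-45125684) lay below 0 in the hip and above 0 in the knee, and was called changed in neither. Its hip counts were 280 and 191 (7.28 and 5.52 CPM) and its knee counts 1249 and 2238 (36.5 and 58.5 CPM). The log2 ratio was -0.35 (-0.63 to -0.08) in the hip and 0.50 (0.40 to 0.60) in the knee, at percentiles 36.3 and 76.2. Both signs held under every scaling and with the trend removed, where the ratios were -0.49 and 0.27. The difference between the joints was not tested.

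Beside the Runx2 values in the knee, markers of bone, osteoclasts and cartilage were lower and those of muscle, the superficial zone and fat higher. The counts called are set against 6.81% of all knee genes called lower and 9.00% called higher. The osteoblast and osteocyte list went from 1.21% to 0.706% of counts (5 of 11 called lower, and 1 higher as in the background) and the hypertrophic chondrocyte list from 0.247% to 0.172% (5 of 6 called lower), while muscle markers went from 1.42% to 3.03% (11 of 19 called higher). Osteoclast markers went from 0.344% to 0.191% (5 of 8 called lower), and 12 of 16 chondrocyte markers were called lower. Superficial zone markers went from 0.137% to 0.264% and adipocyte markers from 0.0671% to 0.116%, with 3 of 8 and 3 of 7 called higher. None of these markers was at 0, and their part in the Runx2 ratio was not tested. Runx2 also shares exonic sequence with genes on the other strand. Supt3, a subunit of the SAGA coactivator complex, overlaps 362 bases of its exons (4.10%) and had 669 and 289 counts in the hip pair, against 600 and 492 for the knee pair. The antisense RNA Runx2os1 overlaps 519 bases, with 18 and 0 hip counts and 39 and 31 knee counts. Whether the counting used strand is not given in the sources used here, so reads over the shared bases cannot be told apart.

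Runx1 (ENSMUSG00000022952, GRCm39 chr16:92398354-92623037) lay close to Cbfb in the hip. It had 247 and 281 counts there, or 6.42 and 8.13 CPM, and 1853 and 2467 counts in the knee, or 54.1 and 64.5 CPM. The log2 ratio was 0.38 (0.13 to 0.64) in the hip and 0.07 (-0.01 to 0.16) in the knee. With the trend removed these became -0.20 (-0.45 to 0.05) and -0.11 (-0.20 to -0.02), so the sign turned in both joints. The lncRNA Gm26626 overlaps 106 exonic bases of Runx1 and had at most 4 counts in any library.

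A difference between a pair of genes in 1 library pair does not depend on the scaling. In the hip the log2 ratio of Cbfb exceeded that of Runx2 by 0.76 (0.48 to 1.04) and that of Runx3 by 2.09 (1.57 to 2.61), while its difference from Runx1 was 0.02 (-0.23 to 0.28). Runx1 exceeded Runx2 by 0.74 (0.37 to 1.10), and Runx2 exceeded Runx3 by 1.33 (0.75 to 1.91). The hip order was thus Cbfb and Runx1, then Runx2, then Runx3, with every step after the first pair beyond counting error. With the length and GC trend removed, Runx1 exceeded Runx2 by 0.30 (-0.07 to 0.66), within counting error, Runx2 exceeded Runx3 by 0.80 (0.22 to 1.37), and Cbfb exceeded Runx3 by 1.08, also beyond it. Cbfb then exceeded Runx2 by 0.29 (0.01 to 0.56), with the lower bound close to 0. In the knee Runx2 exceeded Runx3 by 0.74 (0.58 to 0.90) and Cbfb by 0.57 (0.46 to 0.69). Cbfb exceeded Runx3 there by 0.17 (0.02 to 0.31) and stood below Runx1 by a difference of -0.14 (-0.25 to -0.04). After trend removal that last difference turned to 0.20 (0.09 to 0.30), Cbfb exceeded Runx3 by 0.42 (0.27 to 0.56), Runx2 exceeded Cbfb by 0.18 (0.06 to 0.30) and Runx2 exceeded Runx3 by 0.60 (0.44 to 0.76).

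**Figure D3:**
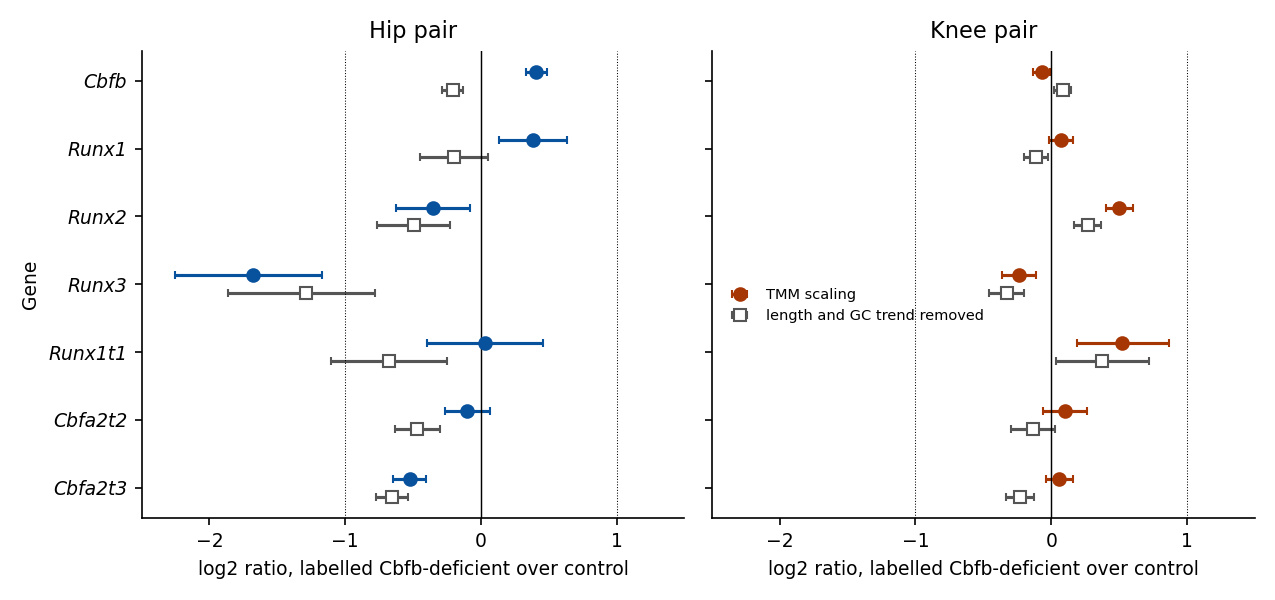
Log2 ratio of the library labelled Cbfb-deficient over its control for the 7 genes in the hip pair (left) and knee pair (right), with 95% counting intervals. Filled circles are TMM-scaled, open squares follow removal of the length and GC trend, and dotted lines mark a 2-fold difference, which Runx3 in the hip passes at -1.68.

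The ETO family, which links repressors to histone deacetylases, showed no called change. The GRCm39 positions were chr8:123351878-123426045 for Cbfa2t3 (ENSMUSG00000006362), chr2:154278252-154381764 for Cbfa2t2 (ENSMUSG00000038533) and chr4:13743165-13893649 for Runx1t1 (ENSMUSG00000006586). Cbfa2t3 (also called Mtg16), a corepressor of blood cells, was lower in the hip by less than the threshold, with 1538 and 932 counts, or 40.0 and 26.9 CPM. Its log2 ratio was -0.52 (-0.64 to -0.41) in the hip and 0.06 (-0.04 to 0.16) in the knee, where it had 1390 and 1833 counts. The trend-removed values were -0.65 and -0.23. Cbfa2t2 (Mtgr1) had hip counts of 665 and 541 and knee counts of 545 and 741, and its ratios of -0.10 (-0.27 to 0.07) and 0.10 (-0.06 to 0.27) lay within counting error. Some other scalings put Cbfa2t2 beyond it, at -0.39 (-0.56 to -0.23) in the hip by upper quartile and 0.28 (0.12 to 0.45) in the knee by library size. Runx1t1 (Eto) was scarce, with 101 and 90 hip counts and 113 and 206 knee counts. Its log2 ratio was 0.03 (-0.39 to 0.46) in the hip and 0.52 (0.19 to 0.87) in the knee. With the trend removed, Runx1t1 stood at -0.68 and Cbfa2t2 at -0.47 in the hip, both with intervals below 0. All members except Runx1 were then below 0 beyond counting error in the hip, with a median of -0.49 over the 7. Of all genes tested, 34.5% lay above and 33.1% below 0 by the same rule. In the knee, 3 members then lay above and 3 below 0, beside 29.4% and 30.3% of all genes.

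Levels of different genes were compared per kilobase of merged exons, which ranged from 3870 bases for Cbfb to 12668 for Runx1. Cbfb was the highest member in every library, at 17.1 and 22.0 CPM per kilobase in the hip pair and 28.6 and 30.9 in the knee pair. It stood between percentiles 90.7 and 93.0 of protein-coding genes. In the hip Cbfa2t3 came next, at 4.66 and 3.14, followed by Cbfa2t2 at 1.38 and 1.25. The 3 Runx genes stood below these at 0.507 to 0.824 in the hip control and 0.219 to 0.641 in its partner. In the knee the Runx genes stood higher in the order, between 4.12 and 5.65 CPM per kilobase in the control and between 5.09 and 6.62 in the library labelled Cbfb-deficient. By this length Runx3 was the second member in the knee control and Runx2 in its partner.

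Several neighbours in the order were not separable by counting error. These were Runx2 and Runx3 in the hip control, Runx1 and Runx2 as well as Runx1t1 and Runx3 in its partner, Runx1 and Runx2 in the knee control, and Cbfa2t3, Runx3 and Runx1 along the order in the knee library labelled Cbfb-deficient. The hip and knee tables list different gene sets, and only the hip tables end with HTSeq summary lines, so levels are set side by side and no fold is given between the joints.

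The makeup of the Runx pool differed within each joint. Runx1, Runx2 and Runx3 held 24.6%, 40.0% and 35.5% of the summed Runx counts per kilobase in the hip control. In the hip library labelled Cbfb-deficient they held 43.2%, 42.1% and 14.8%. The share of Runx3 thus went from 35.5% (31.3 to 39.8) to 14.8% (11.1 to 19.4), with counting intervals that did not overlap, and that of Runx1 from 24.6% (21.8 to 27.7) to 43.2% (38.9 to 47.6). In the knee the shares were 30.4%, 29.4% and 40.2% in the control and 29.7%, 38.6% and 31.7% in its partner. There the share of Runx2 went from 29.4% (28.0 to 30.8) to 38.6% (37.3 to 39.9) and that of Runx3 from 40.2% (38.5 to 42.0) to 31.7% (30.3 to 33.2), while the intervals of Runx1 (29.1 to 31.7 and 28.6 to 30.8) overlapped. The order of the 3 genes depended on the gene length used, and by the longest transcript or without length correction Runx1 held the highest share in both knee libraries. With the trend removed, the share of Runx3 was 22.4% (17.2 to 28.7) in the hip library labelled Cbfb-deficient and 33.5% in that of the knee, and the share of Runx1 in the hip one was 33.4% (29.5 to 37.6).

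Cbfb stood above the summed Runx level in every library. The ratio of Cbfb to summed Runx counts per kilobase was 8.30 (7.59 to 9.08) in the hip control and 14.8 (13.4 to 16.3) in its partner. For the knee pair it was 2.04 (1.95 to 2.13) and 1.80 (1.73 to 1.87). The log2 change was 0.84 (0.64 to 1.03) in the hip and -0.18 (-0.27 to -0.09) in the knee. With the trend removed it was 0.43 (0.23 to 0.64) and 0.15 (0.06 to 0.24), so the knee direction turned. A transcript ratio within a library needs no scaling between libraries, but it counts RNA from all cells in the tissue and not protein. Without the correction for length the knee ratios were below 1, at 0.932 and 0.795.

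**Figure D4:**
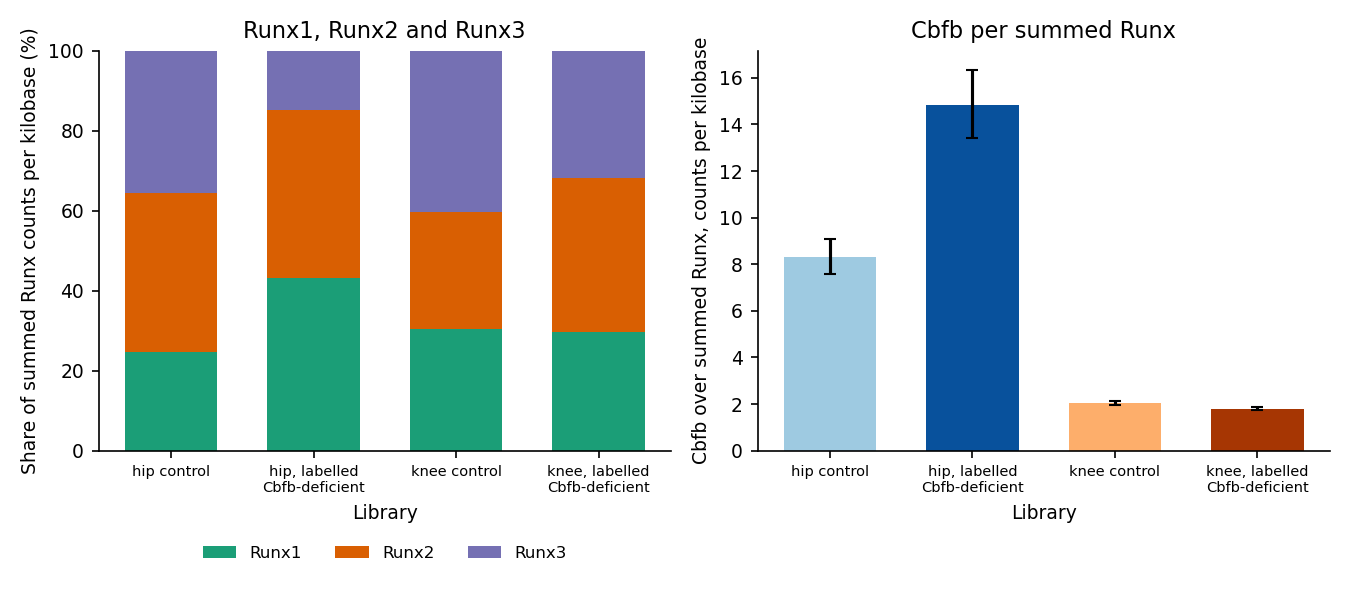
Left, the share (%) of summed Runx counts per kilobase held by Runx1, Runx2 and Runx3 in each of the 4 libraries, and right, Cbfb over the summed Runx level with 95% counting intervals. Runx3 takes 14.8% in the hip library labelled Cbfb-deficient against 35.5% in its control, and Cbfb per summed Runx stands at 8.30 and 14.8 in the hip and at 2.04 and 1.80 in the knee.

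Genes with the most similar profile were found by the largest gap in centred log2 CPM over the 4 libraries, among 9628 genes with at least 100 counts in each. For Cbfb these were P4hb, a protein disulfide isomerase and subunit of collagen prolyl hydroxylase (gap 0.03), Crtc2, a CREB coactivator (0.04), and Cnot10, a subunit of the CCR4-NOT deadenylase (0.04). For Runx1 they were Pgm2, Elmo1 and Dram1 (0.05 to 0.09), and for Runx2 they were Ttyh3, Slc11a1 and Pik3r5 (0.08 to 0.12). Runx3, searched among 14207 genes with at least 10 counts, was nearest to H2-Aa, which encodes an MHC class II chain, Inka1 and C1qtnf6 (0.14 to 0.15). H2-Aa had 714 and 164 counts in the hip, with a log2 ratio of -1.92, and 4434 and 5254 in the knee, with -0.09.

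Partners of Runx proteins were read from fixed lists. Of 18 coactivators and partner transcription factors, 8 rose and 1 fell in the hip, where 20.2% of all genes rose and 16.3% fell. In the knee 0 changed, where 9.00% of all genes rose and 6.81% fell. The median log2 ratios were 0.69 and 0.13. Kat2b, a histone acetyltransferase, rose from 1682 to 5154 counts in the hip (log2 ratio 1.81, 1.43 with the trend removed) and had 1693 and 2187 in the knee (0.03). The AP-1 subunit Jun had log2 ratios of 0.75 and 0.29, and Cebpb, a leucine zipper factor, had 0.32 and -0.34, below the threshold. After trend removal, the hip ratios of Jun and Cebpb were 1.22 and 1.11, past 2-fold, and the medians of the list were 0.80 and 0.0064.

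Of 16 corepressors, 0 rose and 1 fell in the hip (20.2% and 16.3% of all genes) and 2 rose and 0 fell in the knee (9.00% and 6.81%), with medians of 0.19 and 0.03, and of 0.10 and -0.02 with the trend removed. The 1 that fell was Snai1, a zinc finger repressor, from 212 to 77 counts in the hip, where the trend-removed log2 ratio of -0.47 was under 2-fold, and it rose from 165 to 496 in the knee. The histone deacetylase Hdac5 was the other gene that rose in the knee, from 1238 to 3232 counts (log2 ratio 1.04), while its hip ratio was -0.16. After trend removal Hdac5 stood at 0.79 in the knee, under 2-fold, and at 0.24 in the hip, with the sign turned. Hdac3 had ratios of -0.03 and -0.30, and Tle3, a Groucho corepressor, had -0.66 and -0.05.

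Of 9 ubiquitin ligases that act on Runx proteins, 5 rose and 0 fell in the hip, beside 20.2% and 16.3% of all genes, and 1 rose and 0 fell in the knee, beside 9.00% and 6.81%. The knee count is near that of all genes. The median log2 ratios were 1.02 and 0.28, but with the trend removed they were 0.27 and 0.10. Wwp1 rose from 3014 to 8500 counts in the hip (log2 ratio 1.69) and from 947 to 2896 in the knee (1.27). Its ratio was 0.21 in the hip and 1.11 in the knee with the trend removed, so only the knee value stayed over 2-fold. Nedd4 rose in the hip (1.57, and 1.06 with the trend removed) and had 0.52 in the knee. Stub1, a chaperone-linked ligase, had -0.59 and -0.10, and its hip value turned to 0.12 with the trend removed.

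Of 22 genes of the ETO corepressor complex, 5 rose and 2 fell in the hip, which is not far from the 20.2% and 16.3% of all genes. In the knee 0 changed, beside 9.00% and 6.81% of all genes. The medians were 0.38 and 0.04, and 0.22 and -0.07 with the trend removed. Ncor1, a scaffold for Hdac3, rose from 2740 to 5784 counts in the hip (log2 ratio 1.28), where the trend-removed value was 0.67. The E protein Tcf4 had log2 ratios of 0.93 and -0.19, and its hip value turned to -0.37 with the trend removed. The genes that fell in the hip were Bcl6, from 2288 to 879 counts, and Gfi1, from 34 to 12, with trend-removed log2 ratios of -1.01 and -0.73, the latter under 2-fold. Both are zinc finger repressors, and they had ratios of 0.89 and 0.75 in the knee.

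Of 17 known targets of Runx2 in bone and hypertrophic cartilage, 2 rose and 7 fell in the hip, beside 20.2% and 16.3% of all genes, and 2 rose and 9 fell in the knee, beside 9.00% and 6.81%. The medians were 0.02 and -1.06, so that of the hip was close to the 0.01 of all genes, and they were -0.25 and -1.10 with the trend removed. Col1a1, the main collagen of bone, fell from 29148 to 5430 counts in the hip (log2 ratio -2.23) and from 315688 to 191508 in the knee (-1.06). Its partner chain Col1a2 fell with ratios of -2.05 and -1.32. Spp1, which encodes osteopontin, rose in the hip from 1005 to 1895 counts (log2 ratio 1.11, but 0.81 and under 2-fold with the trend removed) and fell in the knee from 75953 to 35562. The genes that rose in the knee were Sost and Tnfrsf11b, which encode inhibitors of Wnt and of RANKL, at 1.61 and 1.00. Many of these targets are also osteoblast markers, whose summed share was lower in both joints.

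Of 21 targets of Runx1 and Runx3 in blood cells, 15 had enough counts in the hip, of which 0 rose and 6 fell, beside 20.2% and 16.3% of all genes. In the knee 19 had enough, of which 1 rose and 2 fell, near the 9.00% and 6.81% of all genes. The medians were -0.66 and 0.06, and -0.61 and 0.10 with the trend removed. Itga2b, a platelet integrin chain, had 426 and 246 counts in the hip (log2 ratio -0.59) and 10358 and 14764 in the knee (0.17, and -0.08 with the trend removed). The neutrophil enzymes Elane and Mpo had hip ratios of -0.59 and -0.10 and knee ratios of 0.12 and 0.09, and their hip ratios were -0.04 and 0.53 with the trend removed. Csf1r, the receptor of macrophage colony-stimulating factor, fell from 1342 to 531 counts in the hip and had a ratio of 0.22 in the knee, where the trend-removed value was -0.04. Csf1r is also a macrophage marker, and that list was lower in the hip as given for Runx3.

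**Figure D5:**
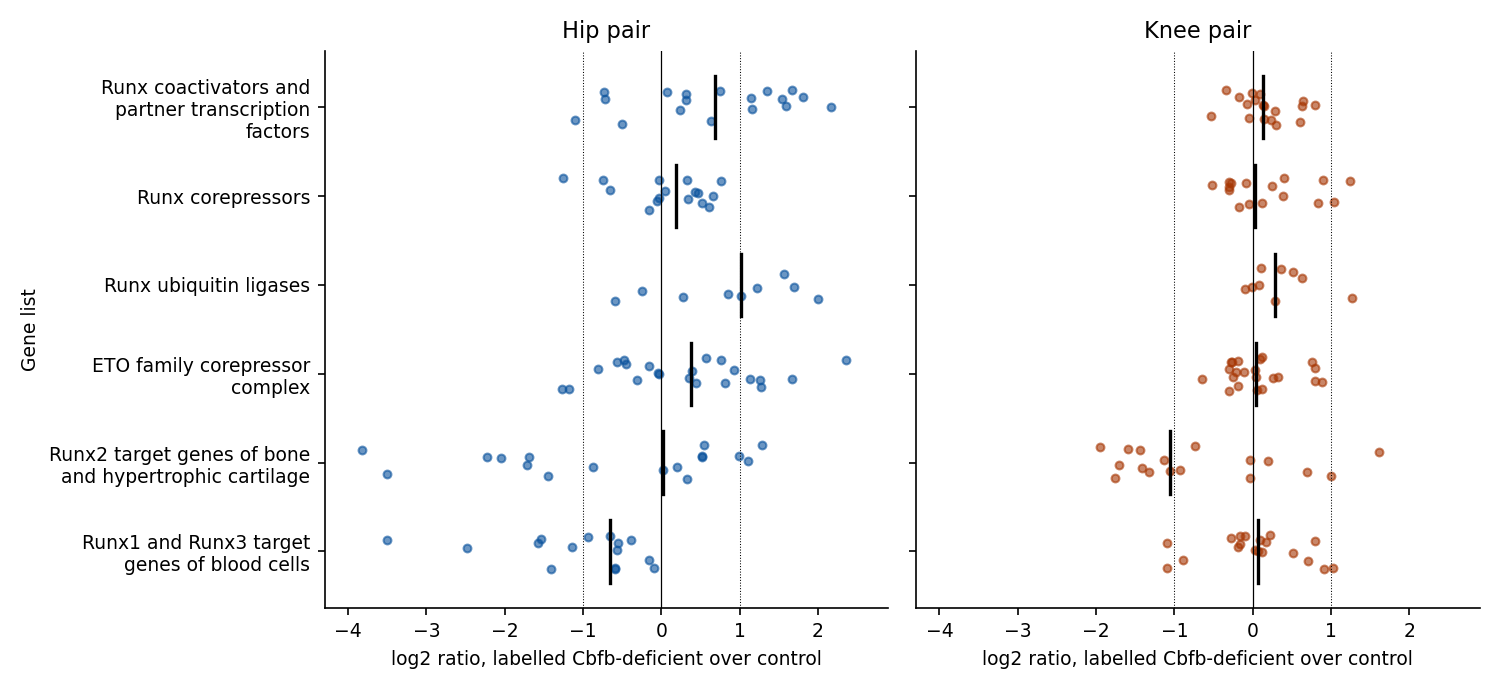
Log2 ratio of the library labelled Cbfb-deficient over its control for each tested gene (points) of the 6 fixed lists in the hip pair (left) and the knee pair (right), with the list median as a bar and dotted lines at a 2-fold difference. Medians run from -0.66 to 1.02 in the hip and from -1.06 to 0.28 in the knee.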

How the data were processed

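Whole-number counts per Ensembl gene were deposited by the authors without normalization, 1 table for each of 4 poly-A libraries (NEBNext Ultra). The hip tables end with the summary lines of HTSeq (25.8% and 24.6% of listed reads), which were left out. The counting program of the knee tables is not given in the sources used here. The submitters' processing notes name FastQC 0.11.3, STAR 2.0 and mm10, whereas the methods name GRCm39 and DESeq2. The tables hold no coordinates. The extraction note names osteoblasts, while the tissue label is articular cartilage.

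Symbols, positions and exon lengths came from GENCODE M39 (GRCm39), which matched 91.8% of hip and 92.6% of knee identifiers. Counts were scaled within each joint by TMM in edgeR 4.0.16 (R 4.3.3), and 0.5 was added to each count. Intervals and plots used Python 3.11.15, numpy 2.4.6, pandas 2.3.3, scipy 1.17.1 and matplotlib 3.10.9. Intervals of levels are exact Poisson, those of ratios Clopper-Pearson, and those of differences, shares and Cbfb per Runx a normal approximation, all at 95%. A count of 3, the floor, was 0.0780 to 0.0876 CPM. To remove the trend, genes were put into 20 bins by transcript length, each bin's median log2 ratio was subtracted, and the same was done by GC content, with 2 rounds in all. Steps were tested on simulated data. No test was made, since within a joint each condition had 1 library.

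The members and lists were chosen with earlier results of these data known. Genes named are the 7 members, the 3 genes of highest mean CPM in each of 6 lists (1 of them is not reported here), the 3 nearest in profile to Cbfb and each Runx gene, and a few added after their values were seen, among them Snai1, Bcl6, Gfi1, Sost, Tnfrsf11b, Csf1r and Gzma. Some genes that overlap exons of a Runx gene (Supt3, Runx2os1, Gm26626) and those holding the paired motif are named too. Alternatives were library size, DESeq2 1.42.0 size factors, upper quartile, library size without muscle and erythroid markers, added counts of 1 and 5, trend removal, other filters, a 1.5-fold rule, other gene lengths and, chosen after seeing the data, TMM on genes with at least 10 counts and trend removal for shares, differences between members and Cbfb per Runx (each level in a library labelled Cbfb-deficient divided by its fitted shift).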

Additional observations from a re-analysis of the deposited data

Results flagged for a closer look

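Cbfb and Runx2 lay in opposite directions in the hip and the knee pair, in each case with a counting interval that excluded 0. The log2 ratio of Cbfb was 0.41 in the hip and -0.071 in the knee. That of Runx2 was -0.35 in the hip and 0.50 in the knee. Neither difference between the joints was tested, since each condition had 1 library. For Cbfb both signs turned after the trend with gene length and GC was removed, and for Runx2 neither did.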

How the results depend on the processing

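With 1 library per condition no spread between mice is known, no library could be left out, and hip and knee differ in joint, Cre line, age, control and gene set together. No paired analysis was possible because within a joint each condition had 1 library and the labels give no replicate numbers. A fit over both joints with joint as a term would leave 1 residual degree of freedom and was not run. Calls among the members did not differ under any alternative tried (1 in the hip, 0 in the knee). The log2 ratio of Cbfb in the hip was 0.11 under upper quartile scaling and -0.21 with the trend removed. In the knee it was 0.11 by library size, 0.055 by library size without muscle and erythroid markers, -0.15 by upper quartile and 0.086 with the trend removed. Runx1 in the hip was -0.20 with the trend removed. For members other than Cbfb, 76 values moved by less than their counting interval, 19 moved further and 1, whose interval had excluded 0, turned sign. A ratio whose interval held 0 was not counted as turning sign. Among the 19, with the trend removed, the knee ratios of Runx1, Cbfa2t2 and Cbfa2t3 turned to -0.11, -0.14 and -0.23. The hip ratio of Runx1t1 turned to -0.68 in the same way. The cause was not tested. Requiring 10 counts in each library left 4548 changed genes in the hip and 2013 in the knee, since fewer genes were tested, beside 7252 and 3342, and the 1.5-fold rule gave 6349 in the knee. The median of all genes was -0.28 under upper quartile scaling in the hip, -0.12 without a count filter and 0.12 with 10 counts in each library. In the knee it was 0.20 by library size and 0.15 without muscle and erythroid markers. The share of calls that were higher was 55.4% in the hip, but 39.7% by upper quartile and 68.4% with 10 counts in each library. In the knee it was 56.9%, but 71.3% by library size and 68.3% without muscle and erythroid markers. By the longest transcript, or the longest coding one, Cbfb per summed Runx was 7.41, 12.4, 1.79 and 1.58 in the hip control, its partner, the knee control and its partner, and without length correction it was 3.81, 5.78, 0.932 and 0.795, with a hip log2 change of 0.60. In the same library order and by either longest transcript, the share of Runx1 was 31.0%, 50.8%, 37.7% and 36.7%, that of Runx2 was 37.0%, 27.2% and 35.7% in the last 3, and that of Runx3 was 35.1% and 27.6% in the knee. Without length correction the share of Runx1 was 37.0%, 55.1%, 45.5% and 42.9%, that of Runx3 was 21.1%, 7.45%, 23.8% and 18.1%, and that of Runx2 was 37.5% in the hip partner. With the trend removed in the libraries labelled Cbfb-deficient, a choice made after seeing the data, Cbfb per summed Runx was 11.2 in the hip and 2.26 in the knee, with log2 changes of 0.43 and 0.15, and the shares of Runx1 and Runx3 in the hip were 33.4% and 22.4% and those of Runx2 and Runx3 in the knee 37.0% and 33.5%.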
